A study of Mus musculus with 21 samples.

Results

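Mouse embryonic stem cells with a Trim71 knockout were compared with embryonic stem cells with an Ago2 knockout, both transfected with the same empty plasmid. The comparison used 6 of the 21 total RNA-seq libraries of the series: 3 biological replicates of genotype Trim71-/- (Trim71KO_empty) and 3 of genotype Ago2-/- (Ago2KO_empty), both from the second of 2 experiments. The comparison was defined by these labels, with earlier results of these data known. It is the one knockout comparison of Experiment 2 in which the plasmid is matched. All groups derive from mouse embryonic stem cells of 129S6/SvEvTac background that carry the GFP_5xT71BS reporter and a stably transfected FLAG-Cas9 with a blasticidin resistance gene, and that were grown on gelatin in medium with serum and LIF. Experiment 2 also holds 3 libraries of unedited cells transfected with pCIP FH-T6B_MUT::mCherry (T6B_MUT). T6B is a fragment of TNRC6B that binds argonaute proteins, and this plasmid encodes a mutant form of it. Another 3 libraries, of cells transfected with pCIP FH-T6B_WT::mCherry (T6B_WT), which encodes the form that is not mutated, entered the same fit and share its estimate of the spread. T6B_MUT is used below only as a reference level, because it carries another plasmid and no unedited cells with the empty plasmid are among the samples. Experiment 1 holds Trim71-/- and Ago2-/- libraries with no plasmid named in their labels (Trim71KO and Ago2KO, 3 each). The labels give neither the number of clones behind each knockout group nor the altered part of either gene.

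TRIM71 is an RNA-binding protein of the TRIM-NHL family. It represses a small set of mRNAs in early embryos and stem cells, mostly through hairpins in their 3′ untranslated regions (3′ UTRs), and its own mRNA is a target of the let-7 microRNAs. AGO2 is 1 of 4 mouse argonautes, the proteins that carry microRNAs to matching sites in 3′ UTRs. Argonautes recruit TNRC6 proteins (GW182), which bring the CCR4-NOT deadenylase to the mRNA. In mouse embryonic stem cells the microRNAs of the miR-290 cluster are among the most abundant, and several of them share 1 seed with members of the miR-302 cluster. The series asks how the TRIM71 and argonaute routes relate at the TNRC6 proteins.

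Values below are CPM, read counts of a gene scaled to a common library size, with library sizes adjusted by the trimmed mean of M-values (TMM). For each gene they are given for replicates 1, 2 and 3 of Trim71KO_empty against replicates 1, 2 and 3 of Ago2KO_empty. A positive log2 fold change means a higher level in Trim71KO_empty. A gene was called when its adjusted p, from the quasi-likelihood F test of edgeR with Benjamini-Hochberg adjustment over all genes tested, was under 0.05. The words rose, fell, higher and lower without a qualifier refer to Trim71KO_empty against Ago2KO_empty, so a change in either group can give them.

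The 6 libraries held 33910145 to 40705014 counts each, and their 10 most abundant genes took 5.27% to 7.66% of the counts. Before the TMM adjustment, 1 CPM thus stood for 33.9 to 40.7 reads. Ago2KO_empty replicate 2 stood apart from its group: the noncoding RNA Gm26917 took 3.58% of its counts against 0.94% in replicate 1, and genes of the longest length quartile lay at a median of 0.09 (log2) above the group mean in replicate 2 and 0.098 below it in replicate 3. Without replicate 2 the median log2 fold change of the longest quartile moved from -0.085 to -0.01. Counts without that library are therefore given beside the lists below where the balance of rises and falls turned, a count moved by more than 1.5 times or the median changed sign. The median over all genes tested was itself -0.023 with replicate 2 and 0.0028 without it. The 7 stem cell markers Pou5f1, Sox2, Nanog, Zfp42, Esrrb, Klf4 and Tfcp2l1 summed to 4877 to 5043 CPM in Trim71KO_empty and 3877 to 4274 CPM in Ago2KO_empty. Primitive endoderm markers summed to 10.1 to 12.2 and 16.4 to 22.9 CPM, and trophectoderm markers to 6.03 to 6.84 and 3.33 to 3.38 CPM. Most of the trophectoderm sum was Plet1. In both groups 4 of the 5 trophectoderm markers in the table had means below 1 CPM, and 1 was called higher and 1 lower. Fibroblast markers summed to 8.79 to 9.38 and 4.36 to 5.26 CPM, most of it Thy1, while Col3a1, Lum, Dcn and Postn were not in the table. In bulk libraries, fewer cells of a type and less RNA per cell cannot be told apart.

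The transcripts of the edited genes did not mark both knockouts. Trim71 (chr9:114507133-114564369, minus strand) was present at 405, 409 and 393 against 486, 564 and 419 CPM, below every Ago2KO_empty library but by 1.22 times only (log2 fold change -0.28 ± 0.082 SE, adjusted p = 0.0121). Without Ago2KO_empty replicate 2 the Trim71 difference was -0.16 with an adjusted p of 0.0966. Ago2 (chr15:73095844-73184935, minus strand) was present at 124, 115 and 114 against 87.4, 167 and 45.6 CPM. The spread of Ago2 within Ago2KO_empty was wider than the distance to Trim71KO_empty, whose 3 values lay inside it, and no difference was called (log2 fold change 0.24 ± 0.38 SE, adjusted p = 0.684); leaving out Ago2KO_empty replicate 3 turned the sign. In Experiment 1 the same transcript was 1.78 (log2, adjusted p = 1.78e-10) higher in Trim71KO than in Ago2KO. The 2 experiments differed for Ago2 with an adjusted p of 0.0377. In Experiment 2 the Ago2 transcript therefore did not check the label Ago2KO_empty.

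Ccr4, a chemokine receptor gene that lies 2216 bases downstream of Trim71 on the same strand (chr9:114490316-114504916, minus strand), marked the Trim71-/- libraries. Its level was 36.9, 38.5 and 32 against 0.956, 0.876 and 0.675 CPM, and 0.345 ± 0.0452 CPM (SD, n = 3) in T6B_MUT. All 3 Trim71KO_empty libraries lay at least an order of magnitude above every library of the other 3 groups of Experiment 2, and Ccr4 had the largest increase of all genes considered for naming (log2 fold change 5.41 ± 0.14 SE, adjusted p = 2.80e-15). Experiment 1 gave 6.37 for the same contrast. Ccr4 also lay above T6B_MUT in Ago2KO_empty, by 1.27 (adjusted p = 3.00e-04).

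**Figure D1:**
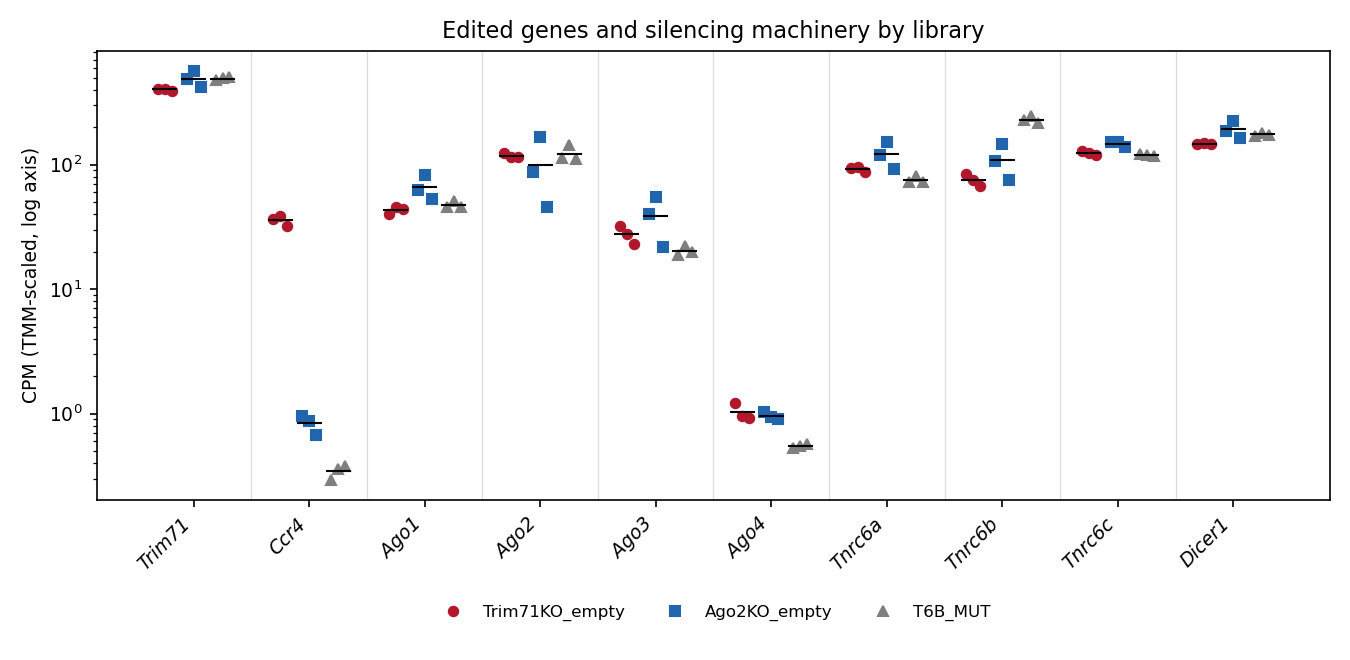
CPM on a log axis of the edited genes, the Trim71 neighbour Ccr4 and genes of the silencing machinery in Trim71KO_empty, Ago2KO_empty and T6B_MUT, with 1 point per library and a bar at each mean (n = 3). Ccr4 is far higher in Trim71KO_empty, while Ago2 in the 3 Ago2KO_empty libraries spreads from 45.6 to 167 CPM around the other groups.

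Most genes of the silencing machinery were not called, and the called ones were lower in Trim71KO_empty. Of 13 genes of the argonaute and microRNA machinery, none rose and 4 fell, with a median log2 fold change of -0.25, against 14.7% of all genes rising, 16.9% falling and a median of -0.023. Leaving out Ago2KO_empty replicate 2 gave 1 rise and 3 falls. Ago1 fell, at 40.3, 45.8 and 43.8 against 62.1, 82.5 and 52.7 CPM (log2 fold change -0.60 ± 0.12 SE, adjusted p = 0.00229). Dicer1, which cuts precursor microRNAs, fell at 147, 150.1 and 146 against 187, 224 and 164 CPM (log2 fold change -0.38 ± 0.082 SE, adjusted p = 0.00162). Tnrc6c fell at 129, 123 and 121 against 151, 153 and 139 CPM (log2 fold change -0.25 ± 0.06 SE, adjusted p = 0.00379), with no overlap between the groups.

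The other effectors were not called. Ago3 was at 32.1, 27.5 and 23.1 against 40.5, 54.5 and 21.9 CPM (log2 fold change -0.50 ± 0.29 SE, adjusted p = 0.24) and Ago4 at 1.21, 0.964 and 0.921 against 1.03, 0.931 and 0.909 CPM (log2 fold change 0.11 ± 0.21 SE, adjusted p = 0.724). Tnrc6a was at 94.7, 96.5 and 88.1 against 119, 151 and 92.5 CPM (log2 fold change -0.38 ± 0.14 SE, adjusted p = 0.0599). Tnrc6b was at 84.8, 74.8 and 67.6 against 108, 145 and 75.3 CPM (log2 fold change -0.53 ± 0.21 SE, adjusted p = 0.081). In each of Ago1, Ago3, Tnrc6a, Tnrc6b and Dicer1 the highest library was Ago2KO_empty replicate 2, the library with the excess of long genes, and without it the Tnrc6b difference was -0.26 (adjusted p = 0.175). Drosha, which cuts primary microRNAs, fell by 0.30 on the log2 scale, and the call was lost without Trim71KO_empty replicate 1 or Ago2KO_empty replicate 2, where the adjusted p reached 0.064. Tnrc6b reached 229.6 ± 14.4 CPM in T6B_MUT, whose plasmid carries a TNRC6B fragment, so that group is no reference for it.

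The test covered 21505 genes and called 6801 of them (31.6%). In Trim71KO_empty 3165 rose (14.7%) and 3636 fell (16.9%). Counts of the gene lists are to be read against these shares. Among the 12696 genes with a mean log2 CPM of 2 or more, 18.7% rose and 19.6% fell. Where this threshold is used, the mean is that of the fit, over all 12 libraries of Experiment 2. With a log2 fold change of at least 1 in size, 1271 genes were called (5.91%), 430 higher (2%) and 841 lower (3.91%). The median standard error was 0.13 on the log2 scale and the median fold change of all genes -0.023. Set against T6B_MUT, a group that both comparisons share, 5975 genes were called in Trim71KO_empty (27.8%) and 6201 in Ago2KO_empty (28.8%).

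**Figure D2:**
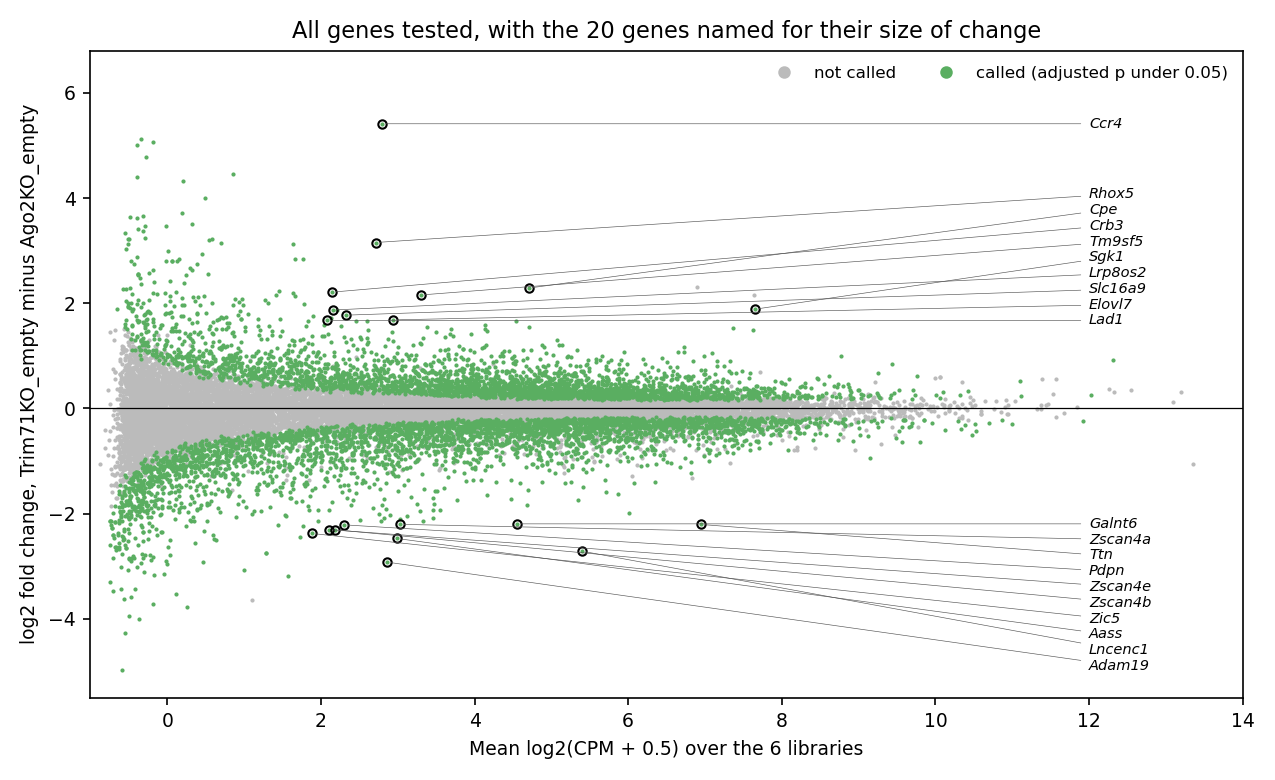
Log2 fold change of every gene tested against its mean log2(CPM + 0.5) over the 6 libraries, with 1 point per gene, called genes in green and the 20 genes named for the size of their change circled. Among the circled genes, the largest increase is that of Ccr4 at 5.41 and the largest decrease that of Adam19 at -2.92. All have a mean log2 CPM of 2 or more over the 12 libraries of Experiment 2, a mean other than that on the axis.

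Genes were named for size when called, with a mean log2 CPM of 2 or more and groups that did not overlap. After Ccr4, the largest increases were those of Rhox5, Cpe and Crb3. Rhox5, an X-linked homeobox gene, was at 16.3, 16.1 and 19.7 against 2.23, 1.5 and 2.08 CPM (log2 fold change 3.15 ± 0.15 SE, adjusted p = 2.89e-11). Cpe, carboxypeptidase E of the secretory pathway, was at 60.6, 55.6 and 53.1 against 11.8, 10.5 and 12.3 CPM (log2 fold change 2.29 ± 0.092 SE, adjusted p = 4.60e-12), and T6B_MUT sat with Ago2KO_empty at 11.3 ± 0.986 CPM (SD, n = 3). Crb3, an apical polarity protein of epithelia, was at 9.98, 7.86 and 6.89 against 2.18, 1.40 and 1.74 CPM (log2 fold change 2.21 ± 0.20 SE, adjusted p = 4.18e-07). Sgk1, a kinase induced by serum and glucocorticoids, was at 397, 387 and 375 against 108, 96.5 and 108 CPM (log2 fold change 1.89 ± 0.066 SE, adjusted p = 4.58e-13). It lay above T6B_MUT in Trim71KO_empty (1.03) and below it in Ago2KO_empty (-0.86). The remaining increases were Tm9sf5 (2.16 ± 0.13 SE), the antisense RNA Lrp8os2 (1.87 ± 0.13 SE), the monocarboxylate transporter gene Slc16a9 (1.77 ± 0.17 SE), the fatty acid elongase gene Elovl7 (1.68 ± 0.11 SE) and the basement membrane anchor gene Lad1 (1.67 ± 0.15 SE). Like Cpe, Slc16a9 (-0.0084) and Elovl7 (-0.10) were not called against T6B_MUT in Ago2KO_empty, whereas Lad1 lay -1.43 from T6B_MUT in Ago2KO_empty and 0.25 in Trim71KO_empty.

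The largest decreases were those of Adam19, Lncenc1 and Aass. Adam19, a membrane metalloprotease gene, was at 2.37, 1.84 and 3.10 against 15.2, 26.3 and 14 CPM (log2 fold change -2.92 ± 0.27 SE, adjusted p = 2.02e-05). Lncenc1, a long noncoding RNA of naive stem cells, was at 16.6, 16.9 and 15.2 against 107, 116 and 95.4 CPM (log2 fold change -2.71 ± 0.08 SE, adjusted p = 2.68e-14), below T6B_MUT in Trim71KO_empty (-1.66) and above it in Ago2KO_empty (1.05). Aass, the first enzyme of lysine breakdown, was at 2.52, 3.80 and 2.99 against 16.5, 17.1 and 17.8 CPM (log2 fold change -2.47 ± 0.12 SE, adjusted p = 3.94e-11). The Aass levels of Ago2KO_empty also exceeded those of T6B_MUT, with a mean of 5.12 ± 0.301 CPM (SD, n = 3). The same held for Galnt6, which starts mucin-type glycans, at 11.9, 10.04 and 10.1 against 48.9, 45.1 and 52.6 CPM (log2 fold change -2.19 ± 0.091 SE, adjusted p = 5.83e-12) and 9.46 ± 0.296 CPM in T6B_MUT. Its difference from T6B_MUT was 2.37 in Ago2KO_empty (adjusted p = 6.50e-12) and 0.18 in Trim71KO_empty (adjusted p = 0.17). Also among the 10 largest decreases were the transcription factor gene Zic5 (-2.38 ± 0.28 SE), the mucin-like surface protein gene Pdpn (-2.21 ± 0.17 SE), the giant muscle gene Ttn (-2.20 ± 0.26 SE) and 3 Zscan4 genes. For Ttn the Ago2KO_empty libraries spread from 166 to 325 CPM, with replicate 3 lowest.

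The list of 6 mRNAs published as repressed by TRIM71 split. Mbnl1, Plxnb2 and Rbl1 rose (50%, against 14.7% of all genes), with a median of 0.32. Of the others, 1 member fell (16.7%, against 16.9%) and 2 were not called. With Ago2KO_empty replicate 2 left out, 3 rose and none fell. Mbnl1, a splicing regulator, was at 43.9, 45.3 and 42.9 against 19.9, 22.2 and 15.2 CPM (log2 fold change 1.20 ± 0.10 SE, adjusted p = 5.29e-08). Plxnb2, a semaphorin receptor, was at 226, 180.4 and 184 against 101, 101 and 83.3 CPM (log2 fold change 1.05 ± 0.089 SE, adjusted p = 7.35e-08). Rbl1, the pocket protein p107, was at 40.2, 42.4 and 39.4 against 24.6, 28.1 and 23.6 CPM (log2 fold change 0.68 ± 0.075 SE, adjusted p = 1.49e-06). For these 3 genes every Trim71KO_empty library exceeded every Ago2KO_empty library, and Ago2KO_empty differed from T6B_MUT by 0.22, 0.17 and -0.015 in turn, none of them called.

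Rbl2, the pocket protein p130, which is listed as a target both of TRIM71 and of the miR-290 family, was at 18.9, 16.5 and 15.8 against 22.7, 20.6 and 17.8 CPM, with overlapping groups. It fell (log2 fold change -0.26 ± 0.093 SE, adjusted p = 0.0431), and the call was lost without Trim71KO_empty replicate 2 or 3 or Ago2KO_empty replicate 1 or 2, where the adjusted p reached 0.264. Against T6B_MUT it lay higher in both groups, by 0.52 in Trim71KO_empty and 0.77 in Ago2KO_empty. Cdkn1a, the CDK inhibitor p21 and also on both lists, was at 10.6, 6.39 and 9.21 against 8.34, 10.9 and 7.58 CPM (log2 fold change -0.031 ± 0.16 SE, adjusted p = 0.903). Against T6B_MUT it was 0.50 (adjusted p = 0.0269) in Trim71KO_empty and 0.53 (adjusted p = 0.0197) in Ago2KO_empty. E2f7, an E2F repressor, was at 12.1, 12.8 and 11.9 against 13.5, 18.7 and 11.1 CPM (log2 fold change -0.23 ± 0.13 SE, adjusted p = 0.204). The groups overlapped for Cdkn1a and E2f7, and the sign of both turned when Ago2KO_empty replicate 2 was left out.

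Members of the miR-290 and miR-302 clusters that share 1 seed are printed here because this seed defines the sites searched in 3′ UTRs. Their mature sequences come from RefSeq (GRCm38.p6), with bases 2 to 8, the seed, in capitals, and let-7a is set beside them as a microRNA with another seed. The first 3 lie on chromosome 7 and the miR-302 members on chromosome 3.
miR-291a-3p: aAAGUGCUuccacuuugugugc
miR-294-3p: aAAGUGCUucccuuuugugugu
miR-295-3p: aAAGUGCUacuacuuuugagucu
miR-302b-3p: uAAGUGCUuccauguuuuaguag
miR-302d-3p: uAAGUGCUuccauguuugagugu
let-7a-5p: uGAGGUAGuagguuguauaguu

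Of 14 mRNAs published as targets of this family, none rose, 9 fell (64.3%, against 16.9% of all genes) and 5 were not called, with a median of -0.28. Without Ago2KO_empty replicate 2, 1 rose, 7 fell and the median was again -0.28. Since levels are compared with Ago2KO_empty, a fall here is a higher level in the libraries labelled Ago2KO_empty. The reverse complement of the seed followed by an A, an 8-base site, was found in the 3′ UTR of 5 members (GENCODE M21, GRCm38). These sites are printed with 9 bases on each side and the site in capitals.
Lats2, chr14:57691077-57691102, minus strand: tatggaaagAGCACTTAttttgtgga
Cdkn1a, chr17:29100491-29100516, plus strand: gggtgtcaaAGCACTTAgtgggtctg
Tgfbr2, chr9:116087762-116087787, minus strand: aaaacctaaAGCACTTAttttcaatc
Lefty1, chr1:180938204-180938229, plus strand: tgtatgcgaAGCACTTAcatgtatag
Lefty2, chr1:180897908-180897933, plus strand: cccagtttaAGCACTTAcatgggtaa

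Of the 5 genes with a printed site, Lats2, Lefty1 and Lefty2 fell, and Cdkn1a and Tgfbr2 were not called. Lats2, a Hippo pathway kinase, was at 11.6, 10.8 and 9.24 against 14.5, 15 and 12 CPM (log2 fold change -0.39 ± 0.10 SE, adjusted p = 0.00582), and Ago2KO_empty lay above T6B_MUT by 0.54. Tgfbr2, the type 2 TGF-beta receptor, was at 4.27, 3.10 and 2.73 against 3.75, 2.85 and 3.64 CPM (log2 fold change -0.017 ± 0.16 SE, adjusted p = 0.951) with full overlap, and both groups lay above T6B_MUT, by 0.68 and 0.70. Lefty1, a Nodal inhibitor, was at 2.06, 2.04 and 3.57 against 5.69, 7.20 and 8.47 CPM (log2 fold change -1.48 ± 0.18 SE, adjusted p = 2.13e-05). Its neighbour Lefty2 was at 4.06, 6.13 and 8.96 against 11.6, 12.8 and 14.4 CPM (log2 fold change -1.02 ± 0.22 SE, adjusted p = 0.00522). Both Lefty genes were higher in T6B_MUT, at 12.8 ± 0.165 and 27.9 ± 2.42 CPM (SD, n = 3), so Ago2KO_empty lay between Trim71KO_empty and T6B_MUT. The coding sequences of the pair are close copies, and reads could be divided between them.

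Among members without an 8-base site, the pro-apoptotic Bcl2l11 (Bim) fell, at 4.71, 6.54 and 6.25 against 17.6, 22.7 and 16.8 CPM (log2 fold change -1.71 ± 0.12 SE, adjusted p = 9.55e-09). Dkk1, a secreted Wnt inhibitor, was at 0.232, 0.0292 and 0.140 against 0.564, 0.411 and 0.571 CPM (log2 fold change -1.89 ± 0.42 SE, adjusted p = 0.00193), below 1 CPM in every library. Ei24, a p53-induced gene, was at 96.7, 104 and 96.5 against 179.7, 172 and 181 CPM (log2 fold change -0.84 ± 0.058 SE, adjusted p = 3.65e-09). Mbd2, a reader of methylated DNA, was at 21.2, 20.8 and 20.2 against 26.8, 24.5 and 25.6 CPM (log2 fold change -0.31 ± 0.071 SE, adjusted p = 0.0026). For Ei24 and Mbd2 the Ago2KO_empty libraries lay above T6B_MUT, by 0.70 and 0.46, and Trim71KO_empty was not called against it. The mitotic kinase gene Wee1 fell by 0.26 on the log2 scale, and the call was lost without Trim71KO_empty replicate 1 or Ago2KO_empty replicate 2, where the adjusted p reached 0.109. Casp2 (0.14, adjusted p = 0.189), Rhoc (-0.13, adjusted p = 0.235) and Arid4b (0.017, adjusted p = 0.907) were not called.

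Across all genes with an annotated 3′ UTR the seed match went with a small shift. Of 496 genes with the 8-base site, 27.6% fell and 14.1% rose, with a median of -0.12. Of 12141 genes with no 7-base match to the seed, 19.4% fell and 18.4% rose, with a median of -0.018, and over all 14604 genes with a 3′ UTR the shares were 20.8% and 17.8%. Genes with the 8-base site had longer 3′ UTRs (median 2852 bases against 940 bases without a match), and 524 genes with a let-7 8-base site, whose median 3′ UTR was 2435 bases, had a median of -0.037 with 20.8% falling. Without Ago2KO_empty replicate 2 the medians were -0.075 for the 8-base site, 0.0078 without a match and 0.017 for let-7. In Experiment 1 the median of the genes with the 8-base site was -0.03. The part of 3′ UTR length in the shift was not tested. The motif searched was AGCACTTA on the transcript strand, which holds the 7-base match AGCACTT.

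Genes of the 2-cell-like state, in which rare stem cells express genes of the 2-cell embryo, had the largest share of members called in 1 direction among the 39 lists. Of 22 genes tested, 20 fell (90.9%, against 16.9% of all genes) and none rose, with a median of -1.56. Leaving out Ago2KO_empty replicate 2, 19 fell and the median was -1.63. The leading members were Tmem92, at 0.232, 0.496 and 0.363 against 2.35, 1.48 and 1.58 CPM (log2 fold change -2.33 ± 0.31 SE, adjusted p = 1.16e-05), and the DNA-binding Zscan4 genes. Zscan4b was at 1.88, 1.52 and 1.90 against 9.20, 9.69 and 7.40 CPM (log2 fold change -2.31 ± 0.15 SE, adjusted p = 1.28e-09) and Zscan4f at 4.60, 4.64 and 4.80 against 18.5, 16.2 and 19.6 CPM (log2 fold change -1.95 ± 0.091 SE, adjusted p = 2.29e-11). Zscan4e (-2.30 ± 0.16 SE), Zscan4a (-2.20 ± 0.10 SE), Zscan4c (-1.93 ± 0.094 SE) and Zscan4d (-1.82 ± 0.11 SE) moved alike. Reads of these near-identical copies could be divided among them, so they are no separate measurements.

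Most 2-cell-like genes lay higher in Ago2KO_empty than in T6B_MUT. Set against T6B_MUT, 21 of them rose in Ago2KO_empty with a median of 1.84, against 16.4% of all genes. Trim71KO_empty against T6B_MUT had 5 rising and 2 falling with a median of 0.15, against 14.4% and 13.4% of all genes. The 22 genes together summed to 54.2 to 58.7 CPM in Trim71KO_empty, 157 to 191 CPM in Ago2KO_empty, 46.6 to 51.8 CPM in T6B_MUT and 208 to 220.2 CPM in T6B_WT. In this sum every T6B_WT library lay above every Ago2KO_empty library. Zscan4f was at 23.1 ± 0.163 CPM (SD, n = 3) in T6B_WT. It was at 5.03, 4.92 and 4.78 CPM in T6B_MUT, against which Trim71KO_empty was not called (adjusted p = 0.646). In Experiment 1, 13 of 20 members tested were lower in Trim71KO than in Ago2KO and none was higher, with a median of -1.07. The shares of all genes in that contrast were 17.1% lower and 17.1% higher.

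Of 17 naive pluripotency genes tested, 9 rose (52.9%, against 14.7% of all genes) and 3 fell (17.65%, against 16.9%), with a median of 0.20. Fgf4, a growth factor made by stem cells, was at 223, 234 and 231 against 139, 129 and 149.5 CPM (log2 fold change 0.72 ± 0.065 SE, adjusted p = 1.19e-07). Zfp42 (Rex1), a marker of the naive state, was at 1069, 1086 and 1060.0 against 692, 652 and 758 CPM (log2 fold change 0.61 ± 0.068 SE, adjusted p = 1.37e-06). Klf4 was at 318, 283 and 329 against 219.9, 243 and 209 CPM (log2 fold change 0.47 ± 0.072 SE, adjusted p = 5.66e-05). Every Trim71KO_empty library exceeded every Ago2KO_empty library for all 3 genes. Nanog rose as well, at 543, 539 and 547 against 392, 427 and 403 CPM (log2 fold change 0.41 ± 0.061 SE, adjusted p = 3.74e-05). Pou5f1 (Oct4) was at 928, 916 and 1005 against 726, 663 and 848 CPM (log2 fold change 0.35 ± 0.08 SE, adjusted p = 0.00259), where Ago2KO_empty was the group away from T6B_MUT (-0.37, against -0.026 in Trim71KO_empty). Sox2 was at 355, 366 and 376 against 370.2, 332 and 374 CPM and was not called (log2 fold change 0.028 ± 0.07 SE, adjusted p = 0.8). The members that fell included the LIF receptor gene Lifr (-0.61, adjusted p = 1.08e-04) and the adhesion molecule gene Pecam1 (-0.51, adjusted p = 3.43e-05), and for both Ago2KO_empty lay above T6B_MUT while Trim71KO_empty was not called against it.

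Core and formative genes were divided, with 4 of 16 rising (25%, against 14.7% of all genes) and 5 falling (31.25%, against 16.9%; median -0.12). Zic2, a zinc finger factor of the formative and primed states, was at 1.42, 1.37 and 1.93 against 6.84, 7.91 and 6.05 CPM (log2 fold change -2.14 ± 0.15 SE, adjusted p = 3.42e-09). Lef1, a Wnt effector, was at 0.257, 0.204 and 0.112 against 0.613, 1.07 and 0.701 CPM (log2 fold change -2.02 ± 0.36 SE, adjusted p = 2.39e-04). Dnmt3a, a de novo DNA methyltransferase, was at 46.6, 48 and 52.2 against 93.6, 123 and 97.2 CPM (log2 fold change -1.10 ± 0.088 SE, adjusted p = 2.84e-08). In Dnmt3a the Trim71KO_empty libraries were the ones away from T6B_MUT (-1.13), and Ago2KO_empty was not called against it (-0.035). Otx2 fell by 0.38 on the log2 scale (adjusted p = 7.83e-04) and Foxd3 rose (0.40, adjusted p = 0.00163).

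**Figure D3:**
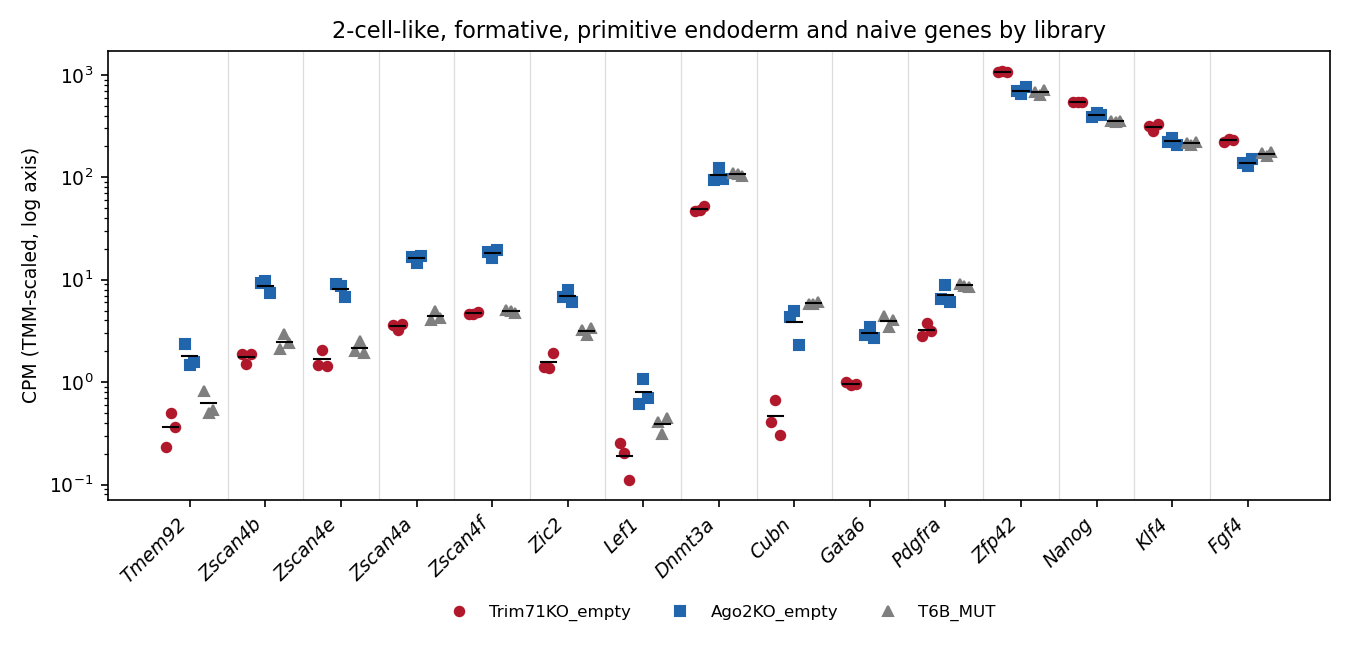
CPM on a log axis of 2-cell-like, formative, primitive endoderm and naive genes in Trim71KO_empty, Ago2KO_empty and T6B_MUT, with 1 point per library and a bar at each mean (n = 3). Of these 3 groups, the Zscan4 genes are highest in Ago2KO_empty, Dnmt3a, Cubn, Gata6 and Pdgfra are lowest in Trim71KO_empty, and Zfp42, Nanog, Klf4 and Fgf4 are highest in Trim71KO_empty.

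Of 20 primitive endoderm genes, 10 fell (50%, against 16.9% of all genes) and 2 rose, with a median of -0.55. Cubn, an endocytic receptor of visceral endoderm, was at 0.412, 0.672 and 0.307 against 4.32, 4.98 and 2.29 CPM (log2 fold change -3.06 ± 0.29 SE, adjusted p = 1.33e-06). Its partner receptor gene Lrp2 was at 33.3, 31.2 and 26.9 against 105, 102 and 66.6 CPM (log2 fold change -1.58 ± 0.16 SE, adjusted p = 2.26e-05). Gata6, the factor that sets the lineage, was at 1.00, 0.934 and 0.949 against 2.87, 3.42 and 2.67 CPM (log2 fold change -1.63 ± 0.18 SE, adjusted p = 1.60e-06), and Pdgfra at 2.83, 3.77 and 3.15 against 6.52, 8.79 and 6.10 CPM (log2 fold change -1.14 ± 0.14 SE, adjusted p = 7.60e-06). Srgn, a proteoglycan gene, fell by 1.80 on the log2 scale (adjusted p = 1.60e-04). Against T6B_MUT, 12 of the 20 members fell in Trim71KO_empty, where 13.4% of all genes fell. In Ago2KO_empty 5 fell, against 12.4% of all genes. Sox7 went the other way, at 2.19, 1.52 and 2.29 against 1.00, 1.15 and 0.883 CPM (log2 fold change 0.98 ± 0.22 SE, adjusted p = 0.00182).

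Of 14 mesoderm and primitive streak genes, none rose and 6 fell (42.9%, against 16.9% of all genes), with a median of -0.62. Only Kdr, the VEGF receptor 2 gene, was above 1 CPM among the 5 named members, at 2.29, 3.12 and 2.01 against 4.93, 5.72 and 4.29 CPM (log2 fold change -1.01 ± 0.17 SE, adjusted p = 1.14e-04). The call for Cdx2 (-2.17, adjusted p = 0.0231) was lost without Trim71KO_empty replicate 2 or Ago2KO_empty replicate 3, and the calls for Gsc (-1.45, adjusted p = 0.00938), Wnt3 (-1.35, adjusted p = 0.013) and Cdx4 (-1.01, adjusted p = 0.0395) were each lost without at least 1 library, where adjusted p values reached 0.0836, 0.0791, 0.0602 and 0.166 in that order of genes.

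Of 15 neural genes, 2 rose (13.3%, against 14.7% of all genes) and 6 fell (40%, against 16.9%), with a median of -0.32. The falls numbered 4 without Ago2KO_empty replicate 2. Neurod1, a neuronal differentiation factor, was at 3.47, 3.24 and 2.37 against 12.4, 9.61 and 12 CPM (log2 fold change -1.90 ± 0.14 SE, adjusted p = 1.04e-08). Pax6 was at 0.154, 0.204 and 0.140 against 0.589, 1.12 and 0.857 CPM (log2 fold change -2.34 ± 0.36 SE, adjusted p = 6.00e-05), a low level in both groups. Gap43, a growth cone protein gene, fell by 1.02 on the log2 scale (adjusted p = 1.59e-05), and Stmn3, a microtubule regulator, rose (0.56, adjusted p = 5.59e-05). Elavl3 rose (0.59, adjusted p = 0.0301), and the call was lost without Trim71KO_empty replicate 3 or Ago2KO_empty replicate 1 or 3, where the adjusted p reached 0.117.

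Of 12 trophectoderm genes, 4 rose and 4 fell (33.3% each, against 14.7% and 16.9% of all genes). Without Ago2KO_empty replicate 2 the falls numbered 2. Plet1 was at 6.38, 6.07 and 5.39 against 2.65, 2.33 and 2.47 CPM (log2 fold change 1.26 ± 0.12 SE, adjusted p = 2.25e-07) and the keratin gene Krt19 at 4.89, 2.80 and 3.21 against 1.59, 1.72 and 1.71 CPM (log2 fold change 1.12 ± 0.18 SE, adjusted p = 1.04e-04). Neither was called in Experiment 1, where Plet1 was at 0.17 and Krt19 at 0.13. The transcription factor genes that fell lay below 1 CPM in all but 1 library: for Esx1 (-1.93, adjusted p = 0.0211) the call was lost without Trim71KO_empty replicate 1 or 3 or Ago2KO_empty replicate 2, where the adjusted p reached 0.235, and for Tfap2a (-1.20, adjusted p = 0.0459) the call was lost without Trim71KO_empty replicate 1 or 3 or Ago2KO_empty replicate 1 or 2, where the adjusted p reached 0.205. Of 12 fibroblast and mesenchyme genes, 2 rose (16.7%) and 4 fell (33.3%), with a median of -0.28 (0.026 without Ago2KO_empty replicate 2). Thy1 was at 7.77, 7.74 and 7.84 against 3.46, 3.86 and 3.77 CPM (log2 fold change 1.07 ± 0.11 SE, adjusted p = 8.31e-07). Vim, vimentin, was at 117, 158 and 185 against 218, 257 and 262 CPM (log2 fold change -0.68 ± 0.13 SE, adjusted p = 0.00164). Zeb1 fell by 0.85 on the log2 scale (adjusted p = 4.07e-08), Tagln by 1.35 (adjusted p = 0.00184), and Snai1 rose (0.96, adjusted p = 0.0053).

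Signalling genes moved in both directions. In the Nodal and Activin list 6 of 22 rose (27.3%, against 14.7% of all genes) and 8 fell (36.4%, against 16.9%). The median was -0.105, and 0.0061 without Ago2KO_empty replicate 2. Inhbb, the beta B subunit of activins and inhibins, was at 269.7, 279.6 and 288 against 88.8, 103 and 99 CPM (log2 fold change 1.53 ± 0.065 SE, adjusted p = 7.66e-12), with T6B_MUT between the groups at 154 ± 3.61 CPM (SD, n = 3). The Nodal inhibitors Lefty1 and Lefty2 fell, as given above, and so did the activin antagonist Fst, at 14.6, 11.7 and 11.8 against 24.8, 20.3 and 22.9 CPM (log2 fold change -0.83 ± 0.099 SE, adjusted p = 3.15e-06).

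In the Wnt list 4 of 28 rose (14.3%, against 14.7% of all genes) and 11 fell (39.3%, against 16.9%). The median of -0.22 became -0.025 without Ago2KO_empty replicate 2. Besides Lef1 and Dkk1, the receptor gene Fzd2 fell by 1.14 (adjusted p = 4.56e-04) and the receptor ligase gene Rnf43 by 1.00 (adjusted p = 0.00723) on the log2 scale. Wnt6 rose, at 9.83, 7.30 and 8.21 against 4.32, 3.48 and 4.21 CPM (log2 fold change 1.08 ± 0.13 SE, adjusted p = 4.18e-06). In the Notch list 2 of 18 rose (11.1%) and 8 fell (44.4%), with a median of -0.47 (-0.23 without Ago2KO_empty replicate 2). The ligand genes Jag1, at 8.44, 8.96 and 9.18 against 22.8, 22.9 and 23 CPM (log2 fold change -1.37 ± 0.078 SE, adjusted p = 2.63e-10), and Dll1, at 1.16, 1.43 and 1.40 against 3.51, 3.89 and 3.74 CPM (log2 fold change -1.48 ± 0.15 SE, adjusted p = 3.10e-07), were lower in every library. Notch4 fell by 1.34 (adjusted p = 9.18e-04) and the glycosyltransferase gene Lfng by 1.08 (adjusted p = 0.00125). Dll3 fell by 0.79, and the call was lost without Trim71KO_empty replicate 1 or Ago2KO_empty replicate 1, where the adjusted p reached 0.0912.

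The ERK and immediate early list had 7 of 23 genes rising (30.4%, against 14.7% of all genes) and 4 falling (17.4%, against 16.9%). Egr1, an immediate early factor, was at 0.720, 1.05 and 0.558 against 5.39, 11.3 and 4.42 CPM (log2 fold change -3.18 ± 0.39 SE, adjusted p = 1.46e-04). Spry1, an ERK feedback inhibitor, was at 15.7, 15.1 and 14.6 against 7.77, 8.27 and 8.03 CPM (log2 fold change 0.91 ± 0.086 SE, adjusted p = 1.94e-07), and here Ago2KO_empty was the group away from T6B_MUT (-1.10). For Spred2 (-1.09, adjusted p = 0.0302) the call was lost without Trim71KO_empty replicate 1, 2 or 3, where the adjusted p reached 0.0855. For Fosl1 (-1.0, adjusted p = 0.038) the call was lost without Trim71KO_empty replicate 1, 2 or 3 or Ago2KO_empty replicate 1 or 3, where the adjusted p reached 0.118. For Jun (0.67, adjusted p = 0.018) the call was lost without Ago2KO_empty replicate 2, where the adjusted p reached 0.0597.

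In the BMP list 5 of 22 rose and 5 fell (22.7% each, against 14.7% and 16.9% of all genes). The 4 largest changes were decreases: the antagonist gene Nog (-1.95, adjusted p = 0.0032), the inhibitory Smad6 (-1.42, adjusted p = 2.36e-05), the receptor gene Bmpr1b (-1.29, adjusted p = 0.00113) and the ligand gene Bmp7 (-1.17, adjusted p = 3.07e-05). For Bmper (-1.11, adjusted p = 0.0461) the call was lost without Trim71KO_empty replicate 1 or 3 or Ago2KO_empty replicate 1 or 3, where the adjusted p reached 0.175. The Hedgehog list had 3 of 16 rising (18.75%) and 2 falling (12.5%), near the shares of all genes (median -0.013). Without Ago2KO_empty replicate 2 the counts were 5 and 1 (median 0.047). Its effector genes were opposed: Gli1 was at 55.2, 49.6 and 51.2 against 22.8, 22.4 and 18 CPM (log2 fold change 1.30 ± 0.094 SE, adjusted p = 6.69e-09), and Gli3 at 5.14, 5.29 and 5.39 against 9.88, 15.7 and 7.20 CPM (log2 fold change -1.05 ± 0.22 SE, adjusted p = 0.00362).

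Hippo pathway genes showed 4 of 23 rising (17.4%, against 14.7% of all genes) and 7 falling (30.4%, against 16.9%). The output genes Ccn2, at 5.50, 4.96 and 4.10 against 11, 11.6 and 9.97 CPM (log2 fold change -1.16 ± 0.11 SE, adjusted p = 1.70e-07), and Ccn1 (-0.73, adjusted p = 4.09e-04) fell, and the kinase gene Lats1 rose (0.53, adjusted p = 0.00125) while its relative Lats2 fell, as given above. Mob1b, a kinase cofactor, rose (0.63, adjusted p = 0.0383), and the call was lost without Trim71KO_empty replicate 1 or 2, where the adjusted p reached 0.0826. Dchs1, a large cadherin, fell (-1.01, adjusted p = 0.0228), and the call was lost without Trim71KO_empty replicate 3 or Ago2KO_empty replicate 1 or 2, where the adjusted p reached 0.115.

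Of 29 epithelial genes, 12 rose (41.4%, against 14.7% of all genes) and 5 fell (17.2%, against 16.9%), with a median of 0.26. The tight junction genes Cldn6, at 9.52, 8.64 and 9.88 against 3.36, 3.01 and 3.53 CPM (log2 fold change 1.5 ± 0.12 SE, adjusted p = 1.77e-08), and Cldn7, at 3.42, 2.37 and 2.82 against 1.32, 1.12 and 0.805 CPM (log2 fold change 1.40 ± 0.20 SE, adjusted p = 2.48e-05), rose. So did Bspry, at 7.15, 7.15 and 7.62 against 2.45, 2.08 and 2.86 CPM (log2 fold change 1.57 ± 0.13 SE, adjusted p = 3.37e-08), and Esrp1, an epithelial splicing regulator, at 8.05, 7.65 and 5.28 against 3.43, 2.57 and 2.73 CPM (log2 fold change 1.26 ± 0.16 SE, adjusted p = 6.16e-06). For Bspry, Cldn6 and Cldn7 the Trim71KO_empty level was not called against T6B_MUT, and Ago2KO_empty lay below it by -1.60, -1.40 and -1.05 (log2). In Experiment 1 the list had 8 of 28 members rising and 10 falling, with a median of -0.093. Of all genes in that contrast, 17.1% rose and 17.1% fell.

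Collagens and laminins were lower in 10 of 25 genes (40%, against 16.9% of all genes) and higher in 4 (16%, against 14.7%). The laminin genes Lama3 (-1.05, adjusted p = 4.59e-07) and Lamb1 (-0.89, adjusted p = 1.72e-08) fell, as did Col18a1 (-0.46, adjusted p = 7.27e-06), and Col5a2 rose (0.66, adjusted p = 0.00211). For Col9a3 (-0.47, adjusted p = 0.0151) the call was lost without Trim71KO_empty replicate 1 or 2 or Ago2KO_empty replicate 1 or 3, where the adjusted p reached 0.104. Among 28 plexins and semaphorins, 2 rose (7.1%) and 9 fell (32.1%), with a median of -0.15. Without Ago2KO_empty replicate 2 the counts were 5 and 8 (median 0.043). Plxnb2 and Sema3f were the members that rose, Sema3f at 5.94, 4.88 and 6.53 against 2.62, 3.39 and 2.26 CPM (log2 fold change 1.07 ± 0.17 SE, adjusted p = 8.72e-05). Sema3e was at 1.49, 1.52 and 2.09 against 5.76, 7.61 and 6.18 CPM (log2 fold change -1.94 ± 0.15 SE, adjusted p = 2.15e-08). For Sema5a (-1.29, adjusted p = 0.0064) the call was lost without Ago2KO_empty replicate 2, where the adjusted p reached 0.0561. For Plxnd1 (-1.19, adjusted p = 0.0232) the call was lost without Trim71KO_empty replicate 2 or 3 or Ago2KO_empty replicate 2, where the adjusted p reached 0.15.

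Cell cycle regulators were divided, with 7 of 25 rising (28%, against 14.7% of all genes) and 9 falling (36%, against 16.9%). Without Ago2KO_empty replicate 2 there were 7 each. Ccnd1, cyclin D1, was at 37.2, 55.2 and 59.8 against 114, 149.8 and 135 CPM (log2 fold change -1.39 ± 0.15 SE, adjusted p = 5.38e-05). Ccne1, cyclin E1, was at 35.7, 49 and 53.5 against 73.6, 93 and 93.7 CPM (log2 fold change -0.91 ± 0.13 SE, adjusted p = 1.59e-04). Trim71KO_empty replicate 1 was lowest for both cyclins. Rb1, the retinoblastoma protein gene, was at 32.7, 29.2 and 24.3 against 59.4, 63.1 and 45 CPM (log2 fold change -0.96 ± 0.13 SE, adjusted p = 7.49e-05), with Ago2KO_empty above T6B_MUT by 1.33. Its relative Rbl1 rose, as given above. E2f2 was at 15.2, 17.6 and 19.5 against 7.65, 9.25 and 8.55 CPM (log2 fold change 1.04 ± 0.10 SE, adjusted p = 4.59e-07), and the CDK inhibitor gene Cdkn1c fell by 0.97 on the log2 scale (adjusted p = 5.61e-05).

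Of 28 genes of the p53 response and apoptosis, 6 rose (21.4%, against 14.7% of all genes) and 7 fell (25%, against 16.9%). Casp8, an initiator caspase, was at 12.2, 12.2 and 10.6 against 6.16, 5.23 and 5.58 CPM (log2 fold change 1.04 ± 0.10 SE, adjusted p = 3.22e-07). Pmaip1 (Noxa) was at 29.8, 31.9 and 29.8 against 67.3, 53.1 and 63.9 CPM (log2 fold change -1.01 ± 0.091 SE, adjusted p = 1.16e-07), whereas Experiment 1 gave an increase of 0.32, and the experiments differed (adjusted p = 4.87e-08). Fas fell (-0.77, adjusted p = 0.0237), and the call was lost without Trim71KO_empty replicate 2 or 3 or Ago2KO_empty replicate 2 or 3, where the adjusted p reached 0.0849.

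Germline and piRNA genes rose in 12 of 28 cases (42.9%, against 14.7% of all genes) and fell in 6 (21.4%, against 16.9%), with a median of 0.18. Asz1 had the largest change of the list, at 0.514, 0.876 and 0.586 against 0.0736, 0.0821 and 0.0260 CPM (log2 fold change 3.38 ± 0.49 SE, adjusted p = 3.06e-05), from a level of 3 reads or fewer in each Ago2KO_empty library. Piwil1 rose (1.13, adjusted p = 0.00403). Tdrd12, a piRNA factor, fell, at 5.43, 7.94 and 8.21 against 22.8, 24.9 and 24.7 CPM (log2 fold change -1.75 ± 0.11 SE, adjusted p = 2.45e-09), and Hormad1, of the meiotic chromosome axis, fell at 4.81, 4.85 and 4.86 against 10.2, 10.2 and 9.87 CPM (log2 fold change -1.06 ± 0.11 SE, adjusted p = 7.94e-07). Tdrd6 fell (-1.66, adjusted p = 0.0237), and the call was lost without Trim71KO_empty replicate 2 or 3 or Ago2KO_empty replicate 3, where the adjusted p reached 0.104.

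Imprinted genes fell in 11 of 30 cases (36.7%, against 16.9% of all genes) and rose in 5 (16.7%, against 14.7%). The growth factor gene Igf2 was at 0.978, 0.321 and 0.753 against 4.32, 5.53 and 4.18 CPM (log2 fold change -2.75 ± 0.24 SE, adjusted p = 7.91e-08). The linked H19 was at 0.720, 0.613 and 0.893 against 1.62, 1.64 and 1.95 CPM (log2 fold change -1.22 ± 0.20 SE, adjusted p = 1.29e-04), so both genes of this locus fell. Dlk1 was at 0.386, 0.350 and 0.419 against 1.10, 1.34 and 1.35 CPM (log2 fold change -1.71 ± 0.26 SE, adjusted p = 6.08e-05). Peg10 was at 33.5, 35.8 and 33.3 against 115, 230.2 and 64.1 CPM (log2 fold change -1.99 ± 0.41 SE, adjusted p = 0.00623), with Ago2KO_empty replicate 2 above the rest, and its call was lost in a fit of the 6 libraries alone. Slc22a18 rose (1.01, adjusted p = 0.00206).

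Of 17 genes of DNA methylation and demethylation, 5 rose and 5 fell (29.4% each, against 14.7% and 16.9% of all genes). Dnmt3a fell, as given above, while the oxidase gene Tet2, at 517, 488 and 467 against 320.2, 404 and 238 CPM (log2 fold change 0.61 ± 0.15 SE, adjusted p = 0.00781), the glycosylase gene Tdg (0.41, adjusted p = 9.28e-04), the imprint guard Zfp57 (0.41, adjusted p = 1.20e-04) and Mbd1 (0.33, adjusted p = 3.32e-04) rose. Of 32 Polycomb genes, 10 rose (31.25%) and 12 fell (37.5%), with a median of -0.034. Without Ago2KO_empty replicate 2, 10 rose and 9 fell (median 0.028). Scml2 was at 21.9, 22 and 18.9 against 7.21, 8.46 and 6.47 CPM (log2 fold change 1.51 ± 0.10 SE, adjusted p = 3.39e-09), and both groups lay above T6B_MUT, by 2.40 in Trim71KO_empty and 0.89 in Ago2KO_empty. Cbx6 rose (0.84, adjusted p = 2.75e-07). The PRC2 cofactor gene Phf19 (-0.97, adjusted p = 3.14e-06) and the CpG island reader gene Kdm2b, at 63.3, 65.4 and 68.4 against 111, 120.2 and 117 CPM (log2 fold change -0.82 ± 0.059 SE, adjusted p = 6.19e-09), fell. For Phc1 (-0.78, adjusted p = 0.0289) the call was lost without Trim71KO_empty replicate 1, 2 or 3, where the adjusted p reached 0.0893.

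Of 23 genes of deadenylation and decapping, 4 rose (17.4%) and 3 fell (13.0%), near the shares of all genes (14.7% and 16.9%). The decapping genes Dcp2 (0.36, adjusted p = 0.00105) and Edc4 (0.30, adjusted p = 0.00139) rose and Dcp1b fell (-0.82, adjusted p = 1.12e-05). For the deadenylase gene Cnot6l (-0.83, adjusted p = 0.0172) the call was lost without Trim71KO_empty replicate 2, where the adjusted p reached 0.0556. For Cnot4 (-0.33, adjusted p = 0.00943) the call was lost without Trim71KO_empty replicate 3 or Ago2KO_empty replicate 2, where the adjusted p reached 0.0669. Of 23 splicing regulators, 6 rose and 6 fell (26.1% each), and without Ago2KO_empty replicate 2 the falls numbered 3. Besides Mbnl1 and Esrp1, Celf4 rose (0.57, adjusted p = 8.05e-05) and Ptbp2, the neuronal polypyrimidine tract-binding protein, fell at 29.7, 32.8 and 28.7 against 57.8, 59.5 and 54.4 CPM (log2 fold change -0.91 ± 0.072 SE, adjusted p = 1.98e-08). For Nova1 (-1.04, adjusted p = 0.0264) the call was lost without Trim71KO_empty replicate 1 or 3 or Ago2KO_empty replicate 1 or 2, where the adjusted p reached 0.0989. Of 17 genes around LIN28, let-7 and the oncofetal RNA-binding proteins, 3 rose (17.65%) and 7 fell (41.2%). Mycn was at 34.3, 33.2 and 37.1 against 57.1, 70.8 and 62.1 CPM (log2 fold change -0.86 ± 0.077 SE, adjusted p = 9.57e-08), Igf2bp2 (-0.58, adjusted p = 3.81e-04) and Arid3a (-0.49, adjusted p = 1.02e-04) fell, and Nras rose (0.50, adjusted p = 6.35e-06).

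Of 36 genes of oxidative phosphorylation, 9 rose (25%, against 14.7% of all genes) and 1 fell (2.8%, against 16.9%), with a median of 0.14. Without Ago2KO_empty replicate 2, 5 rose. Ndufs1 (0.33, adjusted p = 0.00116) and Sdhc (0.33, adjusted p = 0.00355) led the increases of this list. Of 26 genes of cholesterol synthesis and uptake, 9 rose (34.6%) and 2 fell (7.7%). Hsd17b7 was at 26.3, 30.6 and 28.7 against 13.1, 16.1 and 13.4 CPM (log2 fold change 1.01 ± 0.089 SE, adjusted p = 9.16e-08) and Mvk rose (0.48, adjusted p = 6.32e-05), while Idi1 (-0.46, adjusted p = 3.12e-04) fell. Of 24 genes of branched-chain amino acid breakdown, 7 rose (29.2%) and 2 fell (8.3%). Mccc2, a carboxylase subunit of leucine breakdown, was at 11.7, 11.1 and 12.2 against 3.90, 4.30 and 4.52 CPM (log2 fold change 1.46 ± 0.097 SE, adjusted p = 2.15e-09). Its T6B_MUT level of 13.8 ± 0.575 CPM (SD, n = 3) was close to Trim71KO_empty, and Ago2KO_empty lay below by -1.71. Ivd (0.63, adjusted p = 1.30e-05) and Bcat2 (0.61, adjusted p = 2.69e-06) rose.

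Glycolysis genes fell in 7 of 22 cases (31.8%, against 16.9% of all genes) and rose in 2 (9.1%, against 14.7%). Without Ago2KO_empty replicate 2, 4 fell. Pdk1 (-0.61, adjusted p = 5.02e-04), Pfkm (-0.55, adjusted p = 9.04e-06) and Aldoa (-0.43, adjusted p = 3.64e-04) fell, and the glucose transporter gene Slc2a3 was at 2775, 2592 and 2498 against 1867, 1709 and 1932 CPM (log2 fold change 0.51 ± 0.069 SE, adjusted p = 1.30e-05). Of 19 genes of mucin-type glycosylation, 6 rose and 6 fell (31.6% each), and 7 rose and 6 fell without Ago2KO_empty replicate 2. After Galnt6, B3gnt3 rose (1.39, adjusted p = 8.67e-06), Galnt16 (-1.06, adjusted p = 0.003) and Galnt7 (-0.89, adjusted p = 5.41e-07) fell, and Gcnt3 rose (0.97, adjusted p = 0.00823).

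In the list of the unfolded protein and integrated stress response 6 of 27 rose and 6 fell (22.2% each, against 14.7% and 16.9% of all genes). Without Ago2KO_empty replicate 2 the counts were 5 and 9. Herpud1 was at 55.5, 51.7 and 51.8 against 26.5, 24.8 and 29.8 CPM (log2 fold change 0.97 ± 0.076 SE, adjusted p = 1.97e-08) and Ddit3 (CHOP) at 90.4, 69.6 and 66.6 against 43.1, 33 and 42.9 CPM (log2 fold change 0.93 ± 0.11 SE, adjusted p = 1.42e-05), Atf5 rose (0.68, adjusted p = 0.00291) and Vldlr fell (-0.81, adjusted p = 1.63e-04). In the list of interferon and innate RNA sensing 5 of 25 rose (20%) and 7 fell (28%). Without Ago2KO_empty replicate 2, 7 rose and 6 fell, so the balance turned with that library. Ifitm3 was at 14.1, 13.9 and 16.7 against 45, 39.7 and 45.8 CPM (log2 fold change -1.55 ± 0.093 SE, adjusted p = 5.26e-10), Ifitm1 fell alike (-1.92, adjusted p = 1.23e-07) and so did Bst2 (-1.06, adjusted p = 9.99e-06). Oasl1 was at 1.62, 1.55 and 1.45 against 0.270, 0.411 and 0.390 CPM (log2 fold change 2.11 ± 0.26 SE, adjusted p = 4.36e-06) and Tlr3, a sensor of double-stranded RNA, rose (0.95, adjusted p = 0.00662). No replication-dependent histone gene of 31 was called, with a median of -0.37. Of 78 cytosolic ribosomal protein genes, 7 rose (9.0%) and 1 fell (1.3%), both below the shares of all genes. Without Ago2KO_empty replicate 2, 2 rose and 3 fell, so their direction depended on that library. Rps12 was among those that rose (0.47, adjusted p = 1.33e-05).

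**Figure D4:**
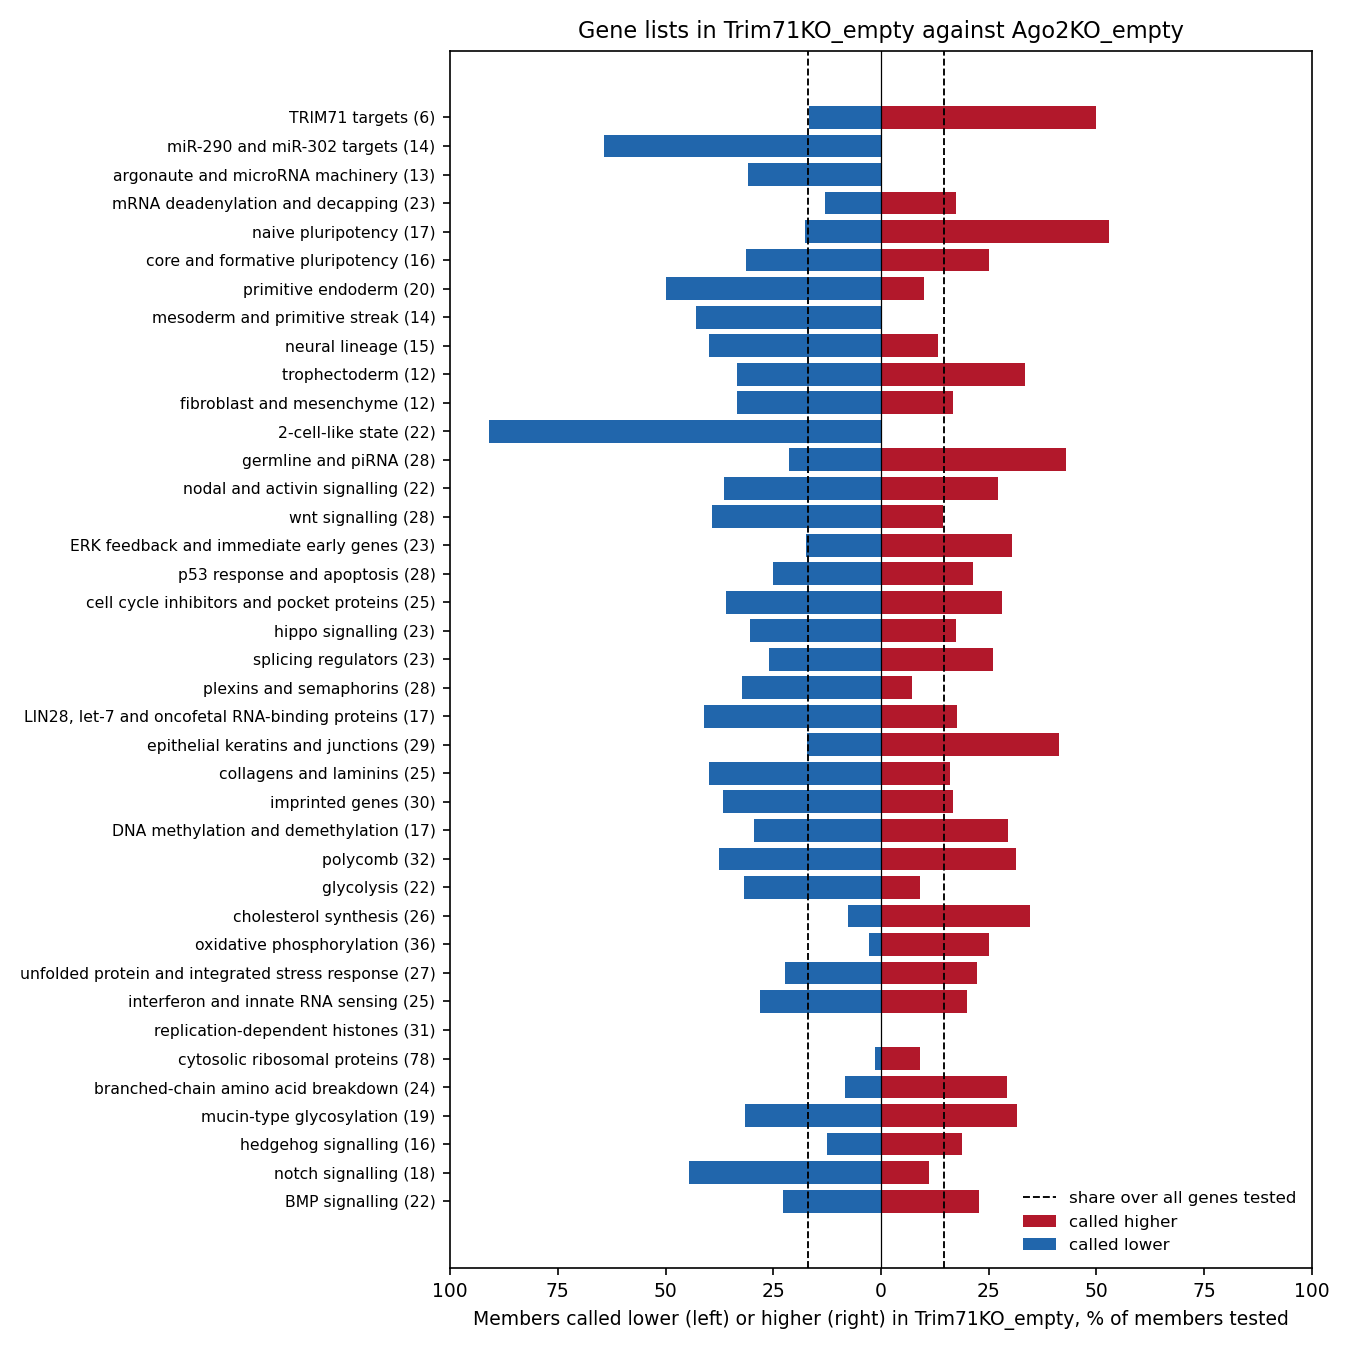
Share of tested members called lower (blue, left) or higher (red, right) in Trim71KO_empty against Ago2KO_empty for 39 gene lists, in percent, with the number tested in brackets. Dashed lines mark the shares over all genes tested, 16.9% lower and 14.7% higher, and the 2-cell-like list reaches furthest, with 20 of 22 members lower.

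The same genotypes were measured in Experiment 1 in separate libraries, where 7256 of 21210 genes (34.2%) were called. Of 20588 genes tested in both, 6609 were called in Experiment 2 and 7176 in Experiment 1. Both called 3957, which is 59.9% of the Experiment 2 calls and 55.1% of the Experiment 1 calls. Of these, 3840 (97.0%) had the same direction, 1781 higher and 2059 lower. Across genes, which are not independent replicates, the fold changes of the experiments correlated with Pearson's r of 0.66 and Spearman's rho of 0.55. Of the 20 genes named for size, all 20 had the same sign in Experiment 1 and 19 were called there, Lad1 (0.20, adjusted p = 0.234) being the exception.

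The fold change itself differed between the experiments for 1686 of 22258 genes (7.57%), 845 higher in Experiment 2 (3.8%) and 841 lower (3.78%). The count was 2916 without Ago2KO_empty replicate 3, 1092 without Trim71KO_empty replicate 1, and 1044 and 1114 without replicate 1 or 2 of Trim71KO. Among the 1686 genes were 10 of the 20 genes named for size. Lefty2 turned: it fell in Experiment 2, as given above, and rose in Experiment 1 (1.70 ± 0.14 SE), and the difference had an adjusted p of 2.14e-05. Lefty1 turned likewise, with 0.68 in Experiment 1 (difference adjusted p = 1.59e-04). Cubn (-3.06 and -1.55), Adam19 (-2.92 and -1.02) and Fgf15, a secreted growth factor gene, at 1.08, 1.05 and 1.28 against 3.92, 5.01 and 5.25 CPM (-2.05 and -0.54), fell further in Experiment 2 than in Experiment 1.

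The largest differences in the other direction included 3 turns. Aqp3, a water and glycerol channel gene, was at 63.2, 45.8 and 48.3 against 38.6, 32 and 36.9 CPM (log2 fold change 0.55 ± 0.10 SE, adjusted p = 6.95e-04) and at -1.10 in Experiment 1. Efr3b, a membrane anchor of a lipid kinase, was at 26.8, 22.5 and 18.1 against 11.3, 10.7 and 9.95 CPM (log2 fold change 1.08 ± 0.12 SE, adjusted p = 1.70e-06) and at -0.57. Wnt6 was at 1.08 and -0.52. Lad1 (1.67 and 0.20) and the glycosyltransferase-like gene Mgat4c (1.55 and 0.16) rose in Experiment 2 and were not called in Experiment 1. The plasmid and any other difference between the experiments cannot be told apart.

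**Figure D5:**
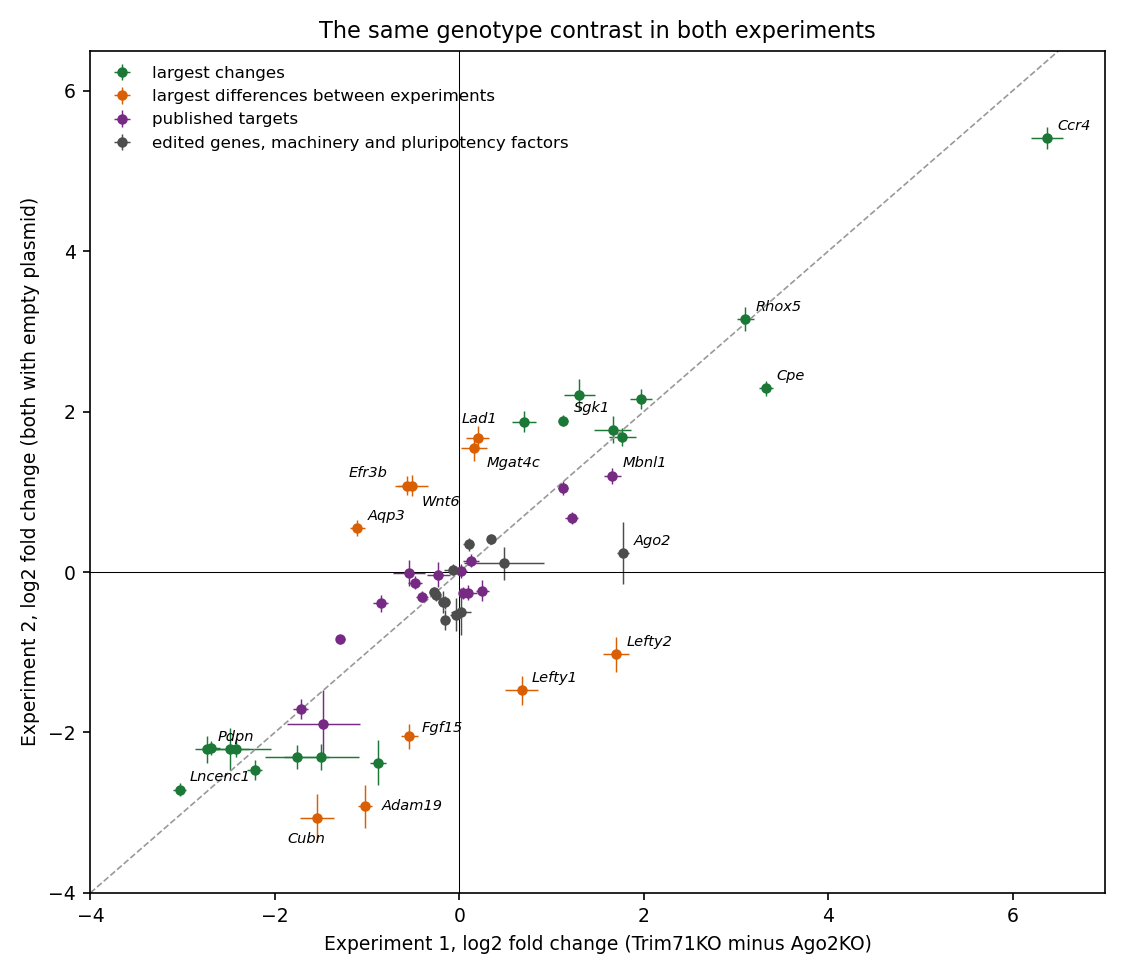
Log2 fold change of the named genes in Experiment 2 (vertical axis) against the same genotype contrast in Experiment 1 (horizontal axis), with 1 point per gene, bars of 1 SE and a dashed line of equality. The genes named for size lie in the quadrants of equal sign, Ccr4 at 5.41 and 6.37 among them, and Lefty1, Lefty2, Aqp3, Efr3b and Wnt6 lie in the quadrants of opposite sign.

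By chromosome, genes on chromosome 8 had the highest median among genes whose mean log2 CPM was 2 or more: of 650 such genes there, 190 rose (29.2%) and 76 fell (11.7%), against 18.7% and 19.6% of all 12696 such genes. Chromosome 1 also had more rises than falls, with 217 of 767 rising (28.3%), 105 falling (13.7%) and a median of 0.06. On chromosome 10, 26.3% rose and 16.75% fell, with a median of 0.024. The median of chromosome 8 was 0.089, and the median was 0.22 in Experiment 1. Against T6B_MUT the median of chromosome 8 was 0.086 in Trim71KO_empty and -0.0078 in Ago2KO_empty. For chromosome 1 it was -0.0084 in Trim71KO_empty and -0.096 in Ago2KO_empty. Medians of the other chromosomes lay between -0.081 and 0.06. Cpe, described above, lies on chromosome 8 (chr8:64592542-64693054, minus strand).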

How the data were processed

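Total RNA-seq of mouse embryonic stem cells was analysed from a table of raw read counts per gene, which the authors deposited together with RPKM values that were not used here. Per the submitters' processing notes, bcl2fastq 2.17, STAR 2.7.3a and the build GRCm38 (mm10) were used; the counting tool and whether it used strand are not given in the sources used here. Every gene in the table had at least 17 counts over all libraries.

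Counts were fitted with edgeR 4.0.16 (R 4.3.3): TMM scaling, filterByExpr with a minimum count of 10, robust quasi-likelihood F tests and Benjamini-Hochberg adjustment over all genes tested. All 12 libraries of Experiment 2 entered 1 fit, so the groups share 1 estimate of the spread. Experiment 1 (9 libraries) was fitted alike, and a fit of all 21 libraries tested the difference between experiments. Tests were also run on simulated counts. These gave all groups the same spread for a gene, so they do not cover groups of unlike spread. DESeq2 1.42.0, other filters, scalings, library sets and each left-out replicate were alternatives. Replicates are biological per the series text, but nothing says that they came from separate clones, so p-values measure the spread between these libraries only. Pairwise chi-square values of 22.5 to 80.7 per degree of freedom were far above sampling noise, so no library appeared to be deposited again. Pairs within T6B_MUT (3.59 to 9.86) and T6B_WT (9.55 to 21.8), which share the estimate of the spread, lay lower. The effect of this on the p-values was not tested. The main fit treated the replicates as unpaired, and counts from a fit with a replicate block are given below.

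The 39 gene lists (966 symbols, 916 in the table), the comparison and the rules were chosen with earlier results of these data known, and no list was tested as a set. Genes were named by rule: the 10 largest increases and decreases among called genes whose mean log2 CPM was 2 or more and whose groups did not overlap, a fixed set (Trim71, the Ago and Tnrc6 genes, Dicer1, Ccr4, Pou5f1, Sox2, Nanog), all members of both target lists, up to 5 called members of every other list by size of change, and the 5 largest differences in each direction between experiments. Drosha, Sox7, Zscan4c and Zscan4d were added after their values were seen. Some genes that these rules chose are not reported here. Of the 199 genes named with values, 99 overlap another annotated gene (GENCODE M21), 43 of them on the same strand, where reads could be counted to either. Intervals and p-values cover no error of library preparation shared by a group.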

Additional observations from a re-analysis of the deposited data

Results flagged for a closer look

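The fold change between Trim71-/- and Ago2-/- libraries differed between the experiments for 57 of the 199 named genes, by the interaction test of edgeR over all 21 libraries with Benjamini-Hochberg adjustment. Over all genes it differed for 1686 of 22258 (7.57%). Some of the 199 were named for this difference or for their size of change in Experiment 2. The count of 57 is therefore no estimate of how often the experiments differ. Values in brackets are the log2 fold change in Experiment 2 minus that in Experiment 1, with 3 libraries in each of the 4 groups. The adjusted p values lay between 4.87e-08 and 0.0483. The plasmid and any other difference between the experiments cannot be told apart.

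The sign was opposite in the 2 experiments for Lefty2 (-2.71), Lefty1 (-2.14), Nova1 (-1.34), Pmaip1 (-1.33), Galnt7 (-1.14), Igf2bp2 (-0.63), Jun (0.95), Sema3f (1.19), Wnt6 (1.61), Efr3b (1.66) and Aqp3 (1.67). Of these, Igf2bp2, Nova1 and Sema3f were not called in Experiment 1.

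Decreases of larger size in Experiment 2 were those of Adam19 (-1.88), Cubn (-1.50), Fgf15 (-1.49), Zic5 (-1.48), Igf2 (-1.18), Zic2 (-1.15), Ccnd1 (-0.79), Jag1 (-0.78), Gap43 (-0.74), Sema3e (-0.66) and Ifitm1 (-0.66). Others of this kind were Ptbp2 (-0.63), Lifr (-0.54), Mycn (-0.52), Pdk1 (-0.48), Zeb1 (-0.47), Ifitm3 (-0.46), Ago1 (-0.44), Lamb1 (-0.41) and Otx2 (-0.36).

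Increases of larger size in Experiment 2 were those of Dcp2 (0.31), Bcat2 (0.36), Ivd (0.37), Inhbb (0.45), Cldn6 (0.60), Gli1 (0.66), Ddit3 (0.71), Esrp1 (0.74) and Sgk1 (0.77). Others were Crb3 (0.92), Krt19 (1.00), Plet1 (1.10), Lrp8os2 (1.18), Mgat4c (1.40) and Lad1 (1.48).

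The change was smaller in Experiment 2 for Ago2 (-1.52), Cpe (-1.03), Ccr4 (-0.94), Mccc2 (-0.58), Rbl1 (-0.53), Lncenc1 (0.33), Arid3a (0.46), Ei24 (0.47), Lats2 (0.47), Galnt6 (0.50) and Kdr (1.26). Among them Ago2, the gene edited in 1 of the groups, was not called in Experiment 2.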

How the results depend on the processing

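The count of 6801 called genes was 6846 with DESeq2 size factors, 6611 with the DESeq2 test, 6875 without a filter and 6349 with CPM over 1 in 3 libraries. It was 7559 in a fit of all 21 libraries, 6726 with chromosome medians removed and 4807 in a fit of the 6 libraries alone. That last fit leaves out T6B_MUT and T6B_WT, so fewer libraries, with higher pairwise chi-square values, estimate the spread. The cause of the lower count was not tested. DESeq2 size factors turned the split from 3165 higher and 3636 lower to 3407 and 3439. Requiring a log2 fold change of at least 1 left 1271 genes, 430 higher and 841 lower. Leaving out 1 replicate gave 5581 to 7698 called genes, 2738 to 3701 higher and 2765 to 3997 lower. For the difference between experiments (1686 genes), leaving out 1 replicate gave 1044 to 2916 genes, 518 to 1342 higher and 433 to 1574 lower. The counts above 1.5 times the full one came without Ago2KO_empty replicate 3 and the lowest without Trim71KO replicate 1, or for lower genes without Ago2KO replicate 1, and the cause was not tested. DESeq2 size factors gave 1674.

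Whether replicate numbers in the labels mark pairs was not settled. Deviations of same-numbered libraries correlated at 0.22, 0.003 and 0.22 over genes, and those of differently numbered libraries at -0.24 to 0.086. With the replicate block 6616 genes were called (3094 higher, 3522 lower), and 1513 for the difference between experiments (753 higher, 760 lower).

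Of 187 named genes that were called, 158 kept the call and the direction in all of the 14 alternatives that tested them. A gene that an alternative filter dropped was not counted as a lost call. No called gene changed sign. Some genes that were not called changed sign when 1 replicate was left out. Their ranges were -0.084 to 0.83 for Ago2 (lowest without Ago2KO_empty replicate 3, highest without Ago2KO_empty replicate 2), -0.0043 to 0.20 for Ago4, -0.048 to 0.097 for Arid4b, -0.17 to 0.16 for Cdkn1a, -0.37 to 0.0069 for E2f7, -0.015 to 0.079 for Sox2 and -0.21 to 0.13 for Tgfbr2. The median of the trophectoderm list was -0.30, but 0.41 with the stricter CPM filter and 0.17 in the fit of 6 libraries. Genes below 1 CPM rest on fewer reads per library than 1 CPM stands for, which limits the differences that could be called.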
